A study of Mus musculus with 502 samples.

Results

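Conventional dendritic cells of the mouse kidney were followed through 9 genes, Flt3, Xcr1, Clec9a, Batf3, Naaa, Irf8, Cd209a, Itgax and Zbtb46, chosen by symbol from the 46603 gene rows of the count table. All 9 had a row, and each was read in at least 14 of the 502 sequenced cells. The cells were Cd45+ single cells sorted from kidneys of wild-type CD1 mice, an outbred stock, at about 3 weeks of age. Kidneys were taken fresh or were kept whole at 4 °C in HTS-FRS, an organ transplant preservative, for 6 h or for 1, 2, 3 or 4 days before dissociation. Each label also carries a number that is read here as a library pool, with A, B and C standing for the 3 such numbers.

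From pool A came 75 fresh cells, 76 stored for 6 h, 78 for 2 days and 2 for 4 days. From pool B came 81 fresh cells, and 75, 82 and 19 cells stored for 1, 3 and 4 days, and pool C gave 14 cells stored for 4 days. By the study's methods the kidneys of a timepoint were pooled from the same mouse, but no label ties a cell to an animal, and whether the fresh cells of pools A and B, or the day 4 cells of the 3 pools, share a mouse is not given. Each timepoint within a pool is treated as 1 sample. Values are compared side by side without a test, since the cells of a sample do not replicate it. Shares carry exact binomial intervals and sums carry exact Poisson intervals at the 95% level, and both cover counting error only, since the reads carry no molecular identifiers. For a share of 0, the limit given after "allows" is instead 3 cells of the total, a one-sided limit somewhat below the upper end of the two-sided exact interval. Total counts on genes ran from 1759 to 1895431 per cell, and the median per sample ran from 417385 at day 4 in pool B to 1128165.5 at day 4 in pool C. Ptprc, which encodes Cd45, was read in 456 of the 502 cells.

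Conventional dendritic cells take up antigen in tissues and present it to T cells on MHC class II. The cDC1 branch depends on the transcription factors Batf3 and Irf8, carries the chemokine receptor Xcr1 and the dead-cell receptor Clec9a, and cross-presents antigen to cytotoxic T cells. The cDC2 branch carries Sirpa and, in many tissues, the lectin Cd209a. Flt3 is the receptor for the growth factor that maintains both branches, Zbtb46 is a transcription factor that separates conventional dendritic cells from macrophages, and Itgax encodes Cd11c, which kidney macrophages carry as well.

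In the GENCODE annotation of GRCm38, Xcr1 lies at chr9:123852315-123862029, Clec9a at chr6:129408862-129424763, Batf3 at chr1:191097847-191108945, Flt3 at chr5:147330741-147400489 and Naaa at chr5:92257659-92278170. Irf8 lies at chr8:120736358-120756694, Cd209a at chr8:3743397-3748984, Itgax at chr7:128129547-128150657 and Zbtb46 at chr2:181387762-181459426. Of the exon bases of Clec9a, 5.59% are shared with Clec1b on the same strand, and the exons of the other 8 genes overlap no other gene. Counting ignored the strand.

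The 250 bases before the RefSeq starts (GRCm38.p6) are shown 5′ to 3′ for Xcr1 and Clec9a, whose joint reads the results turn on, and for Itgax, which holds a match to a searched motif. Capitals mark the match.
Xcr1, chr9:123862030-123862279, minus strand: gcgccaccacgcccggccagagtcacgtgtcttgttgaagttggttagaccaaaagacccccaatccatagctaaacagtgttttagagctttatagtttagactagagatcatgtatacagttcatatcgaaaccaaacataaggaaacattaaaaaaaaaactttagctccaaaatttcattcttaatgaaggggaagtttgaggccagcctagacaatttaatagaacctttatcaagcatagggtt
Clec9a, chr6:129408612-129408861, plus strand: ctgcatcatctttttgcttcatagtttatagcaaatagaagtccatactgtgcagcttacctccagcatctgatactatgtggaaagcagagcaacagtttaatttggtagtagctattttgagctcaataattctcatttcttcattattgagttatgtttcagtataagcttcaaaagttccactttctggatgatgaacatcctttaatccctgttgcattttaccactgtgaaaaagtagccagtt
Itgax, chr7:128129300-128129549, plus strand: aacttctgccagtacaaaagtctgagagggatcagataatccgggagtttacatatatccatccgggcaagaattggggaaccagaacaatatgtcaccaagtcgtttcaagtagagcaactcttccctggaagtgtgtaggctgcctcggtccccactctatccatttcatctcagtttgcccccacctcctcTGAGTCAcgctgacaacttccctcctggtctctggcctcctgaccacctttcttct
The motifs searched, on both strands, were TGANTCA, a sequence of the kind bound by Batf3 with its Jun partners, and GAAANNGAA, a part of sequences bound by interferon regulatory factors such as Irf8. TGANTCA was in 2 of the 10 windows of the 9 genes, those of Itgax and Zbtb46, and in 6.75% of all 32851 windows. GAAANNGAA was in 0 of the 10 and in 7.13% of all windows. Irf8 has 2 starts in the table, and the RefSeq starts of Zbtb46, of Batf3 and of the second Irf8 window lie inside the genes at the coordinates above, so these 3 windows are not upstream of the whole gene, and the window of Itgax ends just inside it.

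The transcription factor Irf8 was the most widely read of the 9 genes. It had a read in 44.4% of the 502 cells (interval 40.02 to 48.9), followed by Naaa, a lysosomal acid amidase that is high in cDC1, in 21.1% of cells (17.6 to 24.95). Itgax was read in 63 cells (12.5%, 9.78 to 15.8) and Batf3 in 56 cells (11.2%, 8.54 to 14.2). The intervals of these last 2 genes overlapped, and both lay below the interval of Naaa. The other 5 genes were read in few cells. Flt3 was read in 22 cells (4.38%, 2.77 to 6.56), Xcr1 in 21 (4.18%, 2.61 to 6.32) and Clec9a in 17 (3.39%, 1.99 to 5.37). Cd209a was read in 15 cells (2.99%, 1.68 to 4.88) and Zbtb46 in 14 (2.79%, 1.53 to 4.64). The intervals of these 5 genes overlapped, so their order is not resolved by the number of cells.

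Where a gene was read, it was mostly read well above a single read. Of the 537 cases in which a cell had a read of a gene, 494 had 5 reads or more and 43 had fewer. The median level in cells with a read, in reads per 1000000 counts on genes (rpm), was 1964 for Cd209a, 665 for Irf8, 470 for Naaa, 333 for Zbtb46, 291 for Flt3, 236.9 for Itgax, 233.3 for Xcr1 and 128.4 for Batf3, and Clec9a had quartiles of 104.7 and 313 rpm. Per kilobase of exon the median rpm was 1241 for Cd209a, between 39.1 (Zbtb46) and 126.2 (Naaa) for the other 8 genes, so Cd209a stood apart on this scale in the cells that had it. Levels spread widely among cells, for Xcr1 from 8.81 to 4575 rpm, with quartiles of 139.2 and 1468 rpm, and for Cd209a from 1.54 to 9316 rpm. A few cells held much of the reads of the rarer genes. Of all reads, 1 cell gave 40.1% for Zbtb46, 33.6% for Xcr1 and 25.5% for Flt3, against 3.66% for Irf8.

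The genes of the cDC1 branch were read together in a small set of cells. Reads of both Xcr1 and Clec9a were present in 8 cells (1.59% of 502, interval 0.691 to 3.12). Each of these 8 cells had reads of 5 to 8 of the 9 genes, and a median of 6. Batf3, Naaa and Irf8 were read in all 8, Flt3 in 7, Itgax in 3, Zbtb46 in 1 and Cd209a in 0. Xcr1 ranged in them from 231.1 to 4575 rpm with a median of 1521 rpm, and Clec9a from 73.9 to 543 rpm with a median of 291 rpm. Naaa ranged from 544 to 4695 rpm, Irf8 from 126.9 to 5937 rpm and Batf3 from 2.27 to 290 rpm. By source, 5 of the 8 were fresh cells of pool A, 1 was a cell of 6 h and 2 were day 4 cells of pool C. Of the pool B cells, 0 had reads of both genes, which allows a share of up to 1.17%.

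**Figure D1:**
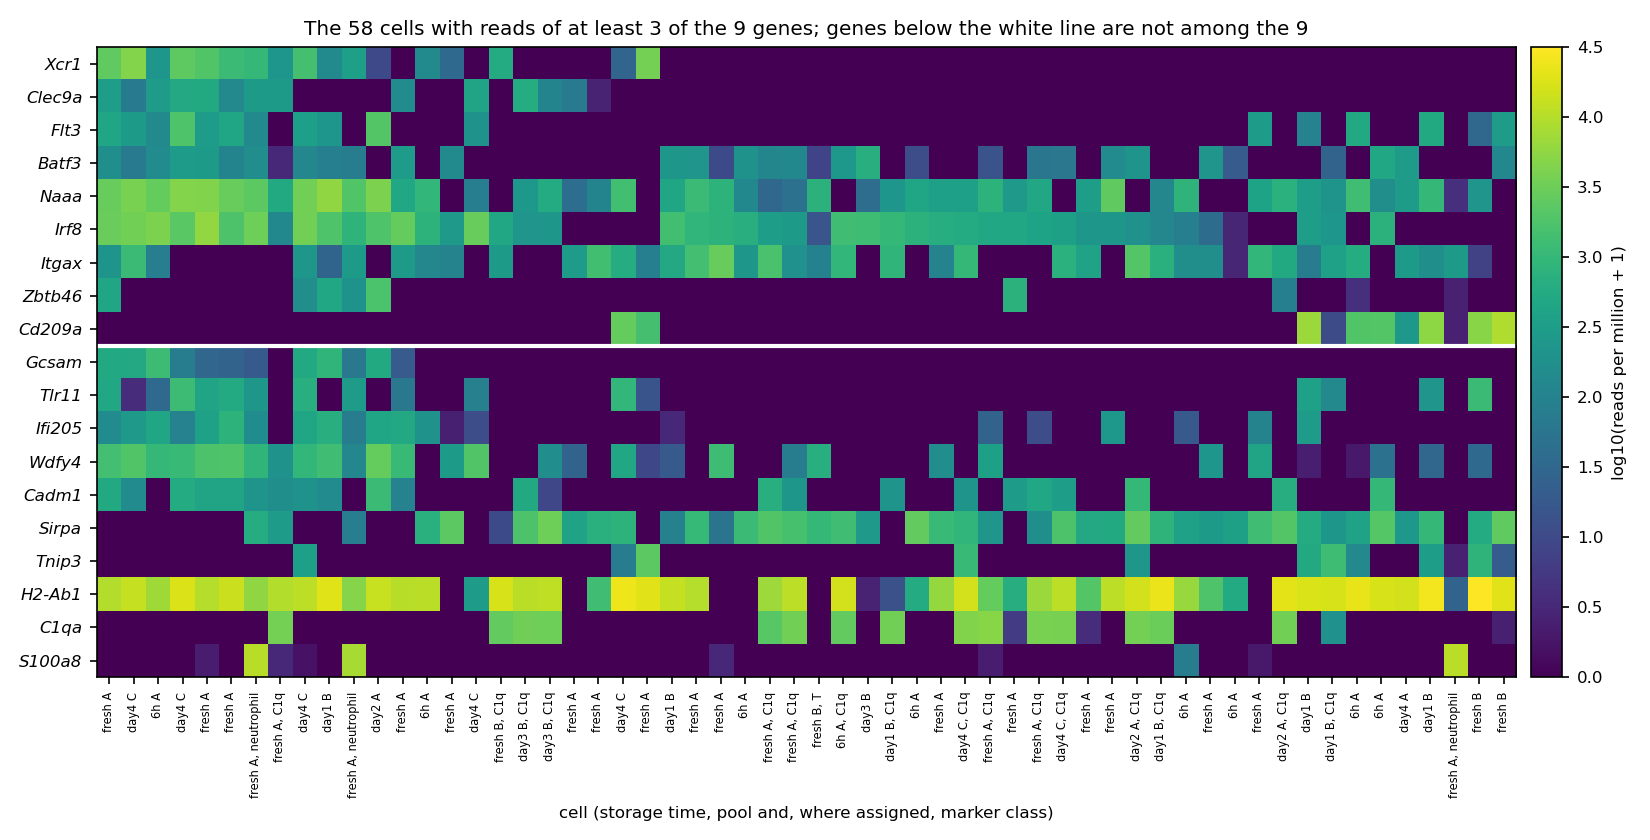
Level of each gene, as log10(rpm + 1), in the 58 cells with reads of at least 3 of the 9 genes, with 1 column for each cell and genes outside the 9 below the white line. The 8 cells at the left have both Xcr1 and Clec9a and 0 of them has Cd209a, whose cells stand mostly at the right.

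Cells with 1 of this pair of receptors were more mixed. Xcr1 without Clec9a was read in 13 cells with a median of 4 of the 9 genes, and 3 of them resembled the double-positive cells in having 6 or 7. A day 4 cell of pool C had Xcr1 at 1468 rpm, Flt3 at 352 rpm, Naaa at 3469 rpm and Irf8 at 3520 rpm with no read of Clec9a. A day 1 cell of pool B had Naaa at 5550 rpm and Irf8 at 1846 rpm beside Xcr1 at 139.2 rpm and Zbtb46 at 476 rpm. The third, a fresh cell of pool A, had Xcr1 at 344.9 rpm beside the neutrophil genes S100a8 at 8098 rpm and S100a9 at 8319.5 rpm. Clec9a without Xcr1 was read in 9 cells with a median of 3 of the 9 genes. A fresh cell of pool A among them had Clec9a at 145.6 rpm, Irf8 at 2738 rpm and Wdfy4, a gene of the cDC1 list, at 1098 rpm, with 5 of the 9 genes read. A day 4 cell of pool C had Clec9a at 428.3 rpm, Irf8 at 2828 rpm, Wdfy4 at 1912 rpm and Itgae at 1884 rpm. In 2 fresh cells of pool A Clec9a was at 1.74 and 67.5 rpm beside Naaa and Itgax, with no read of Irf8. The other 5 were day 3 cells that carried macrophage genes.

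In the 5 day 3 cells Clec9a was at 56.7 to 615 rpm with a median of 150.5 rpm. Flt3, Batf3, Itgax and Zbtb46 were read in 0 of the 5, and Naaa and Irf8 in 3 each. All 5 carried the complement genes C1qa, at 1510 to 3346 rpm, C1qb and C1qc, and the macrophage genes Cx3cr1, Apoe and Csf1r. Of the cDC1 list (Cadm1, Itgae, Tlr3, Wdfy4, Ifi205, Snx22, Gcsam, Id2, Cd24a and Ppt1), 5 of 10 genes were read in 0 of these cells. The part of the bases that Clec9a shares with Clec1b in these reads was not tested.

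Cells with Cd209a formed another set. Cd209a, a C-type lectin, had 10 rpm or more in 12 of its 15 cells, at 245.6 to 9316 rpm with a median of 3784 rpm, and in the other 3 cells it was at 1.54 to 9.77 rpm. Cd209a and Clec9a shared 0 cells, Cd209a and Xcr1 shared 2, and Cd209a and Irf8 shared 4, so that Irf8 was read in 26.7% of the Cd209a cells and 80.95% of the Xcr1 cells. Among the 2 shared with Xcr1, a fresh cell of pool A had Xcr1 at 3667 rpm and Cd209a at 1497 rpm. It also had Siglech, a gene of plasmacytoid dendritic cells, at 833 rpm, and no read of Batf3, Naaa, Irf8 or Clec9a. The other, a day 4 cell of pool C, had Xcr1 at 28.5 rpm and Cd209a at 2784 rpm. Naaa was read in 10 of the 15 Cd209a cells, Itgax in 9, Flt3 in 5 and Zbtb46 in 2, at no more than 3.14 rpm. Of the other genes of the same family, Cd209c was read in 9 cells, all 9 among the Cd209a cells, Cd209d in 9 cells, 7 of them among the Cd209a cells, and Cd209b in 2 cells, both among them. Cd209e, Cd209f and Cd209g were read in 1 cell each, none of which had Cd209a. Summed over cells there were 32074 reads of Cd209a, 4042 of Cd209b, 3496 of Cd209d, 2135 of Cd209f, 915 of Cd209c, 39 of Cd209g and 3 of Cd209e. Reads that fit several of these similar genes could make the split uncertain, which was not tested.

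Flt3 and Naaa were read in cells of both sets. Naaa was in 14 of the 21 Xcr1 cells and 10 of the 15 Cd209a cells, 66.7% of each. Flt3 was read in 10 of the 21 Xcr1 cells, 8 of the 17 Clec9a cells and 5 of the 15 Cd209a cells, and 6 of its 22 cells had none of these 3 genes. Flt3 and Zbtb46 were never read as the only gene of the 9, while Irf8 was read alone in 47.98% of its cells and Naaa in 15. Clec9a cells had Naaa in 15 of 17 cases, Flt3 cells had it in 17 of 22, while the same 15 cells were 14.2% of those with Naaa. Zbtb46 was read with Irf8 in 11 of its 14 cells and with Xcr1 in 5. In all, 44.6% of cells had 0 of the 9 genes, 28.1% had 1, 79 cells had 2, 26 had 3, 16 had 4 and 16 had 5 to 8, so that 58 cells (11.6%, interval 8.89 to 14.7) had at least 3.

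**Figure D2:**
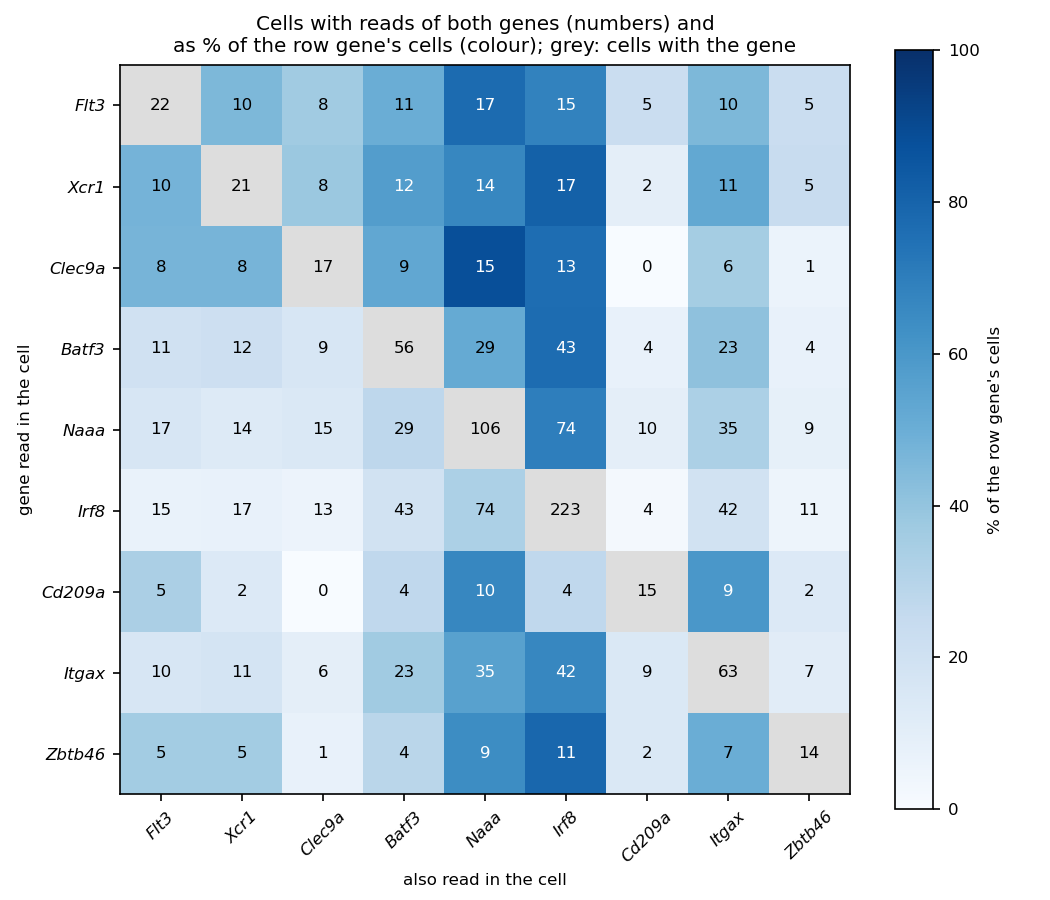
Number of cells with reads of both genes of a pair, with colour giving that number as a percentage of the cells with the row gene, and grey squares giving the cells with each gene. Irf8 is read in most cells of each gene but Cd209a, and Clec9a and Cd209a share 0 cells.

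Lists of genes outside the 9 separated the sets further. The lists hold known markers and were chosen with earlier results of these data known, so they describe the sets and do not test them. In the 8 cells with Xcr1 and Clec9a, 9 of the 10 genes of the cDC1 list were read in at least 50% of cells. Wdfy4, needed for cross-presentation, was read in 8 of 8 with a median of 1254 rpm, Cadm1, an adhesion molecule of cDC1, in 7 of 8, and Tlr3, a receptor for double-stranded RNA, in 5 of 8. Itgae, which encodes Cd103, was read in 3 of 8 and was the tenth gene. Of the 8 genes of the cDC2 list, 0 were read in at least 50% of these cells, with Sirpa in 2 of 8, Mgl2 in 1 of 8 and Irf4 in 0 of 8. All 5 MHC class II genes were read in at least 7 of the 8, with H2-Ab1 at 5574 to 17960.2 rpm.

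The 12 cells with Cd209a at 10 rpm or more differed from them in both lists. Of the cDC2 list, 6 of 8 genes were read in at least 50% of cells, Sirpa and the lectin Mgl2 in 10 of 12 each, Tnip3 in 9, Clec10a and Itgam in 7 and the transcription factor Irf4 in 6. Of the cDC1 list 3 of 10 were, Snx22, Wdfy4 and Ppt1, and Wdfy4 had a median of 1.23 rpm in them. Itgae, Tlr3, Gcsam and Cd24a were read in 0 of the 12. The summed level of the 5 MHC class II genes had a median of 65177 rpm in these cells, 36560.0 rpm in the 8 cells with Xcr1 and Clec9a, and 12.1 rpm in the cells with none of Xcr1, Clec9a and Cd209a and with no marker class, as defined below. The monocyte gene Ccr2 was read in 11 of the 12 and in 7 of the 8 cells with Xcr1 and Clec9a, and Ly6c2, which marks classical monocytes, in 0 of the 12 and 4 of the 8. Over the 6 genes of the monocyte list the summed level ran from 0 to 7618 rpm in the 12 cells and from 809 to 2412 rpm in the 8.

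**Figure D3:**
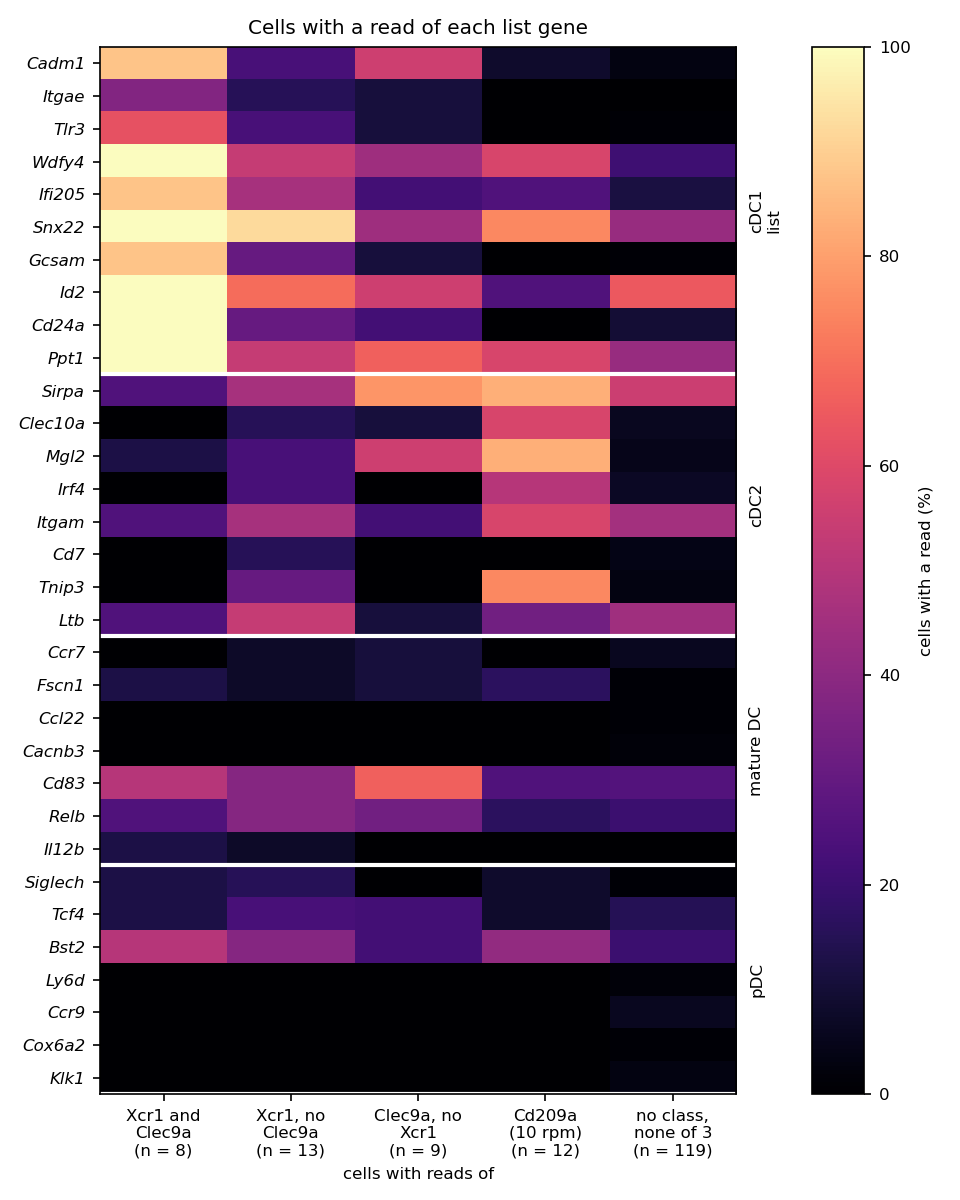
Percentage of cells with a read of each gene of the cDC1, cDC2, mature dendritic cell and plasmacytoid dendritic cell (pDC) lists in 5 sets of cells, with the number of cells under each column. The left column is bright over the cDC1 list and the column of Cd209a cells over the cDC2 list, and both are dark over most genes of the other lists.

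Some cells of these sets also carried markers of another lineage. Cells were grouped by markers outside the 9 genes at 10 rpm or more, Cd79a and Cd79b for B, Cd3e for T, C1qa and C1qb for C1q, S100a8, S100a9 and Csf3r for neutrophil, and Ncr1 for NK. Of all cells 14.5% (73) were B, 20.5% T, 24.3% C1q, 7.17% (36) neutrophil and 2.39% (12) NK cells, 7 cells met several rules, and 29.7% were of no class. Of the 8 cells with Xcr1 and Clec9a, 6 were of no class, 1 was a C1q and 1 a neutrophil cell, and all 12 cells with Cd209a at 10 rpm or more were of no class. The neutrophil cell had Xcr1 at 1003 rpm and Naaa at 2329 rpm beside S100a8 at 10339 rpm, a level within the 1654 to 35188 rpm of the 33 neutrophil cells with fewer than 4 of the genes. The C1q cell had C1qa at 3678 rpm and the lowest Batf3 (2.27 rpm), Naaa (544 rpm) and Irf8 (126.9 rpm) of the 8, with no read of Flt3. Of the cDC1 list it had Wdfy4 at 199.4 rpm and Cadm1 at 173.3 rpm, and no read of Gcsam, Ifi205, Tlr3 or Itgae. Over the 5 neutrophil markers the summed level ran from 0 to 34846 rpm in the 8 cells, with a median of 0. Doublets were not called, and their part in such cells was not tested.

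By marker class, the rarer genes sat mostly in the cells of no class. They held 20 of the 22 cells with Flt3, 15 of 21 with Xcr1, 10 of 17 with Clec9a and 13 of 15 with Cd209a. Reads of at least 3 of the genes were present in 38 cells of no class (25.5% of them), 16 C1q cells (13.1%), 3 of 36 neutrophil cells, 1 T cell (0.971%) and 0 of 73 B cells. These shares pool all samples, and the order of the first 2 classes differed between samples. In fresh cells of pool A they were 16 of 41 cells of no class and 5 of 6 C1q cells, and at 6 h 8 of 22 and 1 of 5. In T cells Flt3, Clec9a and Cd209a were read in 0 cells, Xcr1 in 2 (1.94%), Batf3, Itgax and Zbtb46 in 1 each, Naaa in 7 (6.80%) and Irf8 in 10 (9.71%). The value for Xcr1 can serve as a background, whereas T cells can themselves use Irf8, Batf3 and Itgax, and 8 of the 10 T cells with Irf8 had it at 10 rpm or more. Median depth was 708076 counts in T cells and 640087 in cells of no class.

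Irf8, Naaa, Batf3 and Itgax reached well beyond the cells of no class. Irf8, which is also used by B cells and macrophages, was read in 46 of 73 B cells (63.01%, interval 50.9 to 74.03), 78 C1q cells (63.9%, 54.8 to 72.4) and 8 of 12 NK cells, against 73 cells of no class (48.99%, 40.7 to 57.3). This order was not the same in each sample. In fresh cells of pool B Irf8 was in 15 of 16 B cells, 5 of 8 C1q cells and 0 of 11 of no class, and at 6 h in 2 of 8, 3 of 5 and 17 of 22. Naaa was read in 36.2% of the cells of no class (28.5 to 44.5) and 27.05% of C1q cells (19.4 to 35.8), and Batf3 in 20.1% and 18.03%. Itgax was read in 23.5% of the cells of no class, 16.4% of C1q cells and 16.7% of neutrophil cells. For Naaa, Batf3 and Itgax the intervals of the first 2 classes overlapped.

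**Figure D4:**
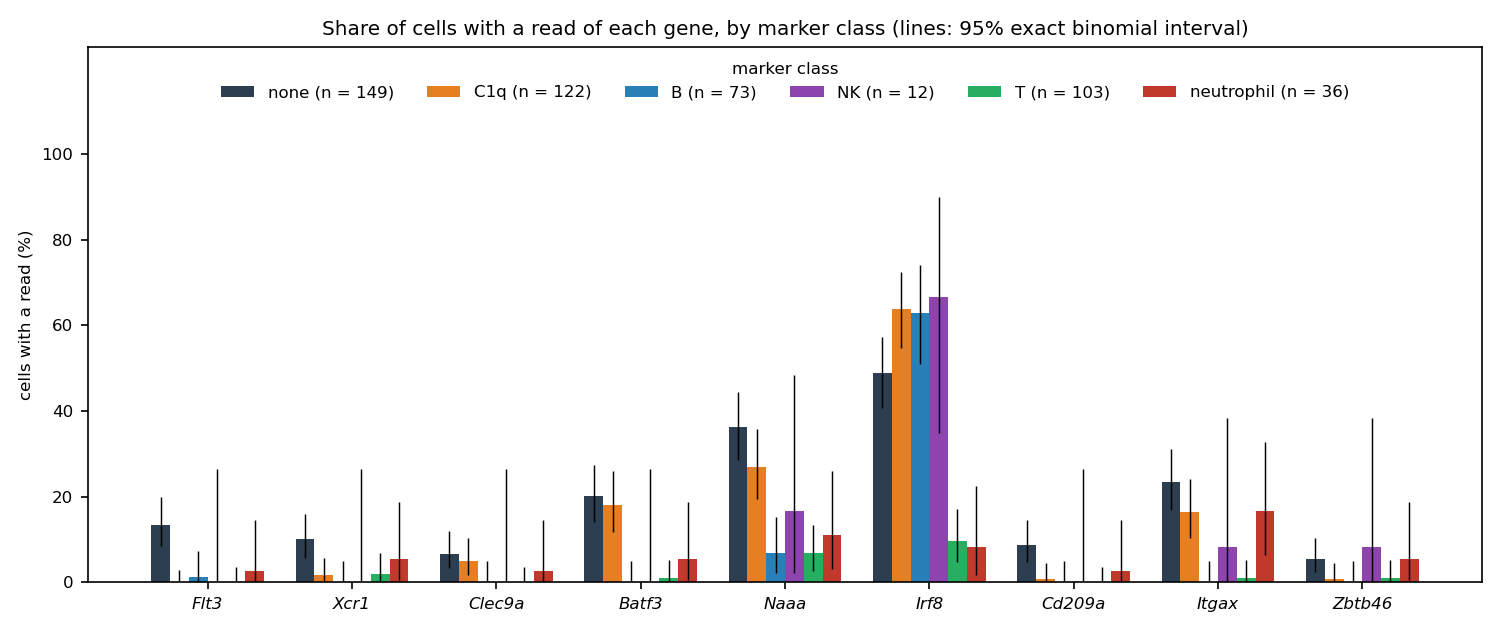
Percentage of cells with a read of each gene in 6 marker classes, with lines for the exact binomial interval, and without the 7 cells that met several rules. Irf8 bars are tall in the B, C1q and NK classes, whereas Flt3 and Cd209a bars are tallest in the cells of no class.

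Each preserved sample was set beside the fresh cells of its own pool. In these comparisons storage time cannot be told apart from sort and, where they differ, animal. The fresh samples differed between pools. Reads of at least 3 of the genes were present in 24 of 75 fresh cells of pool A (32%, interval 21.7 to 43.8) and in 4 of 81 of pool B (4.94%, 1.36 to 12.2). Naaa was read in 44% (32.6 to 55.9) and 9.88% (4.36 to 18.5), Batf3 in 25.3% (15.99 to 36.7) and 4.94% (1.36 to 12.2), and Itgax in 29.3% (19.4 to 40.98) and 4.94% (1.36 to 12.2). Cells of no class were 41 of the 75 and 11 of the 81, and T cells 8 (10.7%) and 44 (54.3%). Pool, sort and, where they differ, animal cannot be told apart here.

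In pool A 8 of the 9 genes were read in a lower share of cells at 6 h than in fresh cells, where 65.6% of all genes read were, and 9 of 9 at day 2, where 72% were. Median genes read per cell were 2649 in fresh cells, 2136 at 6 h and 1731 at day 2. Reads of at least 3 of them were in 24 of 75 fresh cells, 9 of 76 at 6 h (11.8%, 5.56 to 21.3) and 3 of 78 at day 2 (3.85%, 0.800 to 10.8). Xcr1 was read in 9 fresh cells, 3 cells of 6 h and 1 cell of day 2. Clec9a was read in 8, 1 and 0, and the last allows up to 3.85% of cells. Naaa was read in 33, 16 and 9 cells, and Itgax in 22, 9 and 4. Irf8 was read in 44, 30 and 33 cells, Zbtb46 in 5, 2 and 4 and Cd209a in 2, 3 and 0. With every cell thinned to 100000 counts, which left out 1 fresh cell and 2 cells of 6 h, Naaa was read in 43.2%, 21.6% and 11.5%, close to the unthinned 44%, 21.1% and 11.5%. The cells of no class went from 41 of 75 to 22 of 76 and 14 of 78, and the neutrophil cells from 16 to 14 and 1. The B cells went the other way, from 0 to 8 and 29, and of the 33 day 2 cells with Irf8 16 were B cells, against 0 of the 44 fresh ones. The part of this makeup in the shares was not tested. Within the cells of no class, at least 3 of the genes were read in 16 of 41 fresh cells (39.02%, 24.2 to 55.5), 8 of 22 cells of 6 h (36.4%, 17.2 to 59.3) and 1 of 14 cells of day 2 (7.14%, 0.181 to 33.9).

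Counts were also summed over the cells of a sample and expressed per 1000000 counts (CPM), a scale on which fewer cells of a type and less RNA per cell cannot be told apart. At 6 h, 8 of the 9 genes had a lower CPM than in the fresh cells, where 44.6% of all genes read did. Among genes that had 50 counts or more in each of the sums, 5 of 8 were at least 2-fold lower, where 15.1% of all such genes were, and 1 of 8 at least 2-fold higher, where 21.5% were. Their median log2 ratio was -1.35 and that of all such genes 0.16. Since few cells carry most of these reads, the 9 genes are not independent readings of the sample.

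Single genes moved by very different amounts at 6 h. Xcr1 went from 148.4 CPM (upper bound of its interval 151.8) to 8.84 CPM (8.16 to 9.57), a log2 ratio of -4.07, and Clec9a from 26.98 to 5.15 CPM (-2.39). Irf8 and Batf3 were closer to the fresh level in CPM, with log2 ratios of -0.42 and -0.22. They were read in fewer cells, Irf8 in 44 fresh cells and 30 of 6 h and Batf3 in 19 and 11. For Batf3 1 cell gave 27% of the 6 h reads. Cd209a alone was higher, at 17.3 CPM in fresh cells and 75.3 CPM at 6 h (2.12), from 2 and 3 cells, but 1 cell gave 99.9% of the fresh reads and without it the fresh level was 0.0200 CPM. The Clec9a reads of 6 h all came from 1 cell, and without its top cell Xcr1 stood at 4.91 CPM. The 4 reads of Zbtb46 at 6 h, 0.0572 CPM, stood beside 783 reads in fresh cells.

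At day 2, 7 of the 9 genes had a lower CPM than in the fresh cells of pool A, where 46.8% of all genes read did. Of the 6 genes that passed the same minimum of counts, 3 were at least 2-fold lower, where 18.4% of all such genes were, and 1 at least 2-fold higher, where 27.1% were. Naaa stood at 115.9 CPM against 384 CPM, Itgax at 42.9 against 158.9 CPM (62.4% of its day 2 reads from 1 cell) and Batf3 at 7.95 against 35.9 CPM. The 2 higher genes, Flt3 (32.6 against 25.8 CPM) and Zbtb46 (45.8 against 15.5 CPM), rested on few cells. All 2249 Flt3 reads of day 2 came from 1 cell, which also gave 57.7% of the Naaa reads and 59.4% of the Zbtb46 reads. That cell had Wdfy4 at 2763 rpm, Cadm1 at 1172 rpm and Tlr3 at 651 rpm, no read of Clec9a and Xcr1 at 8.81 rpm.

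In pool B, 0 of the 8 genes read were in a lower share of cells at day 1 than in fresh cells, where 42.6% of all genes read were, and 3 of 8 at day 3, where 61.5% were. At least 3 of the 9 genes were read in 4 of 81 fresh cells, 7 of 75 cells of day 1 (9.33%, 3.83 to 18.3) and 3 of 82 cells of day 3 (3.66%, 0.761 to 10.3), with intervals that overlapped. Irf8 was read in 25, 38 and 37 cells, or 30.9%, 50.7% and 45.1%, and after thinning in 31.2%, 48.6% and 40.7%. Naaa was read in 8, 15 and 17 cells and Itgax in 4, 13 and 5. For each of Irf8, Naaa and Itgax the interval in fresh cells overlapped those of day 1 and day 3. Xcr1 was read in 1, 2 and 0 cells, so that the cDC1 receptor was hardly seen at any time in this pool. The T cells, in which the genes were seldom read, went from 44 of 81 to 7 of 75 and 6 of 82. The C1q cells, in which Irf8 and Naaa are read often, went from 8 of 81 to 21 of 75 and 55 of 82, and of the 17 day 3 cells with Naaa 15 were C1q cells.

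On summed counts, 1 of the 8 genes read at day 1 or in the fresh cells of pool B had a lower CPM at day 1, where 50.4% of all genes read did. Among those past the same minimum, 0 of 7 were at least 2-fold lower, where 21% of all such genes were, and 4 of 7, Flt3, Batf3, Naaa and Itgax, at least 2-fold higher, where 20.1% were. Itgax went from 4.70 to 38.8 CPM, with 71.8% of the fresh reads from 1 cell and a fresh level of 1.34 CPM without it. For Flt3 1 cell gave 87.5% of the fresh reads, and without it the fresh level was 0.627 instead of 4.94 CPM. Naaa went from 40.2 to 200.8 CPM, of which 64.7% came from 1 cell. Cd209a was at 208.6 CPM from 2 fresh cells and 286 CPM from 5 cells of day 1, or at 70.6 and 168.2 CPM without the top cell of each sample. Among cells with a read it had the highest median of the 9 genes in both samples, at 7146 and 4784 rpm. Over all cells Irf8 was higher, at 318.3 and 410.7 CPM.

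At day 3, 4 of the 8 genes read had a lower CPM than in fresh cells, where 52.6% of all genes read did, and 4 a higher one. Among those past the same minimum, 1 of 5, Cd209a (208.6 to 31 CPM), was at least 2-fold lower, where 22.4% of all such genes were, and its reads came from 2 fresh cells and 1 cell of day 3. At least 2-fold higher were 3 of 5, Batf3, Naaa and Itgax, where 21.1% of all such genes were, but 92.3% of the Itgax reads of day 3 came from 1 cell. Flt3 and Xcr1 had 0 reads in the 82 cells, which allows up to 3.66% of cells for each. Clec9a had 0 reads in the fresh cells and 591 reads at day 3, all in the 5 C1q cells described above. The direction in this pool rested on its own fresh cells, since against the fresh cells of both pools together 6 of the 9 genes had a lower CPM at day 1 and 9 at day 3.

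**Figure D5:**
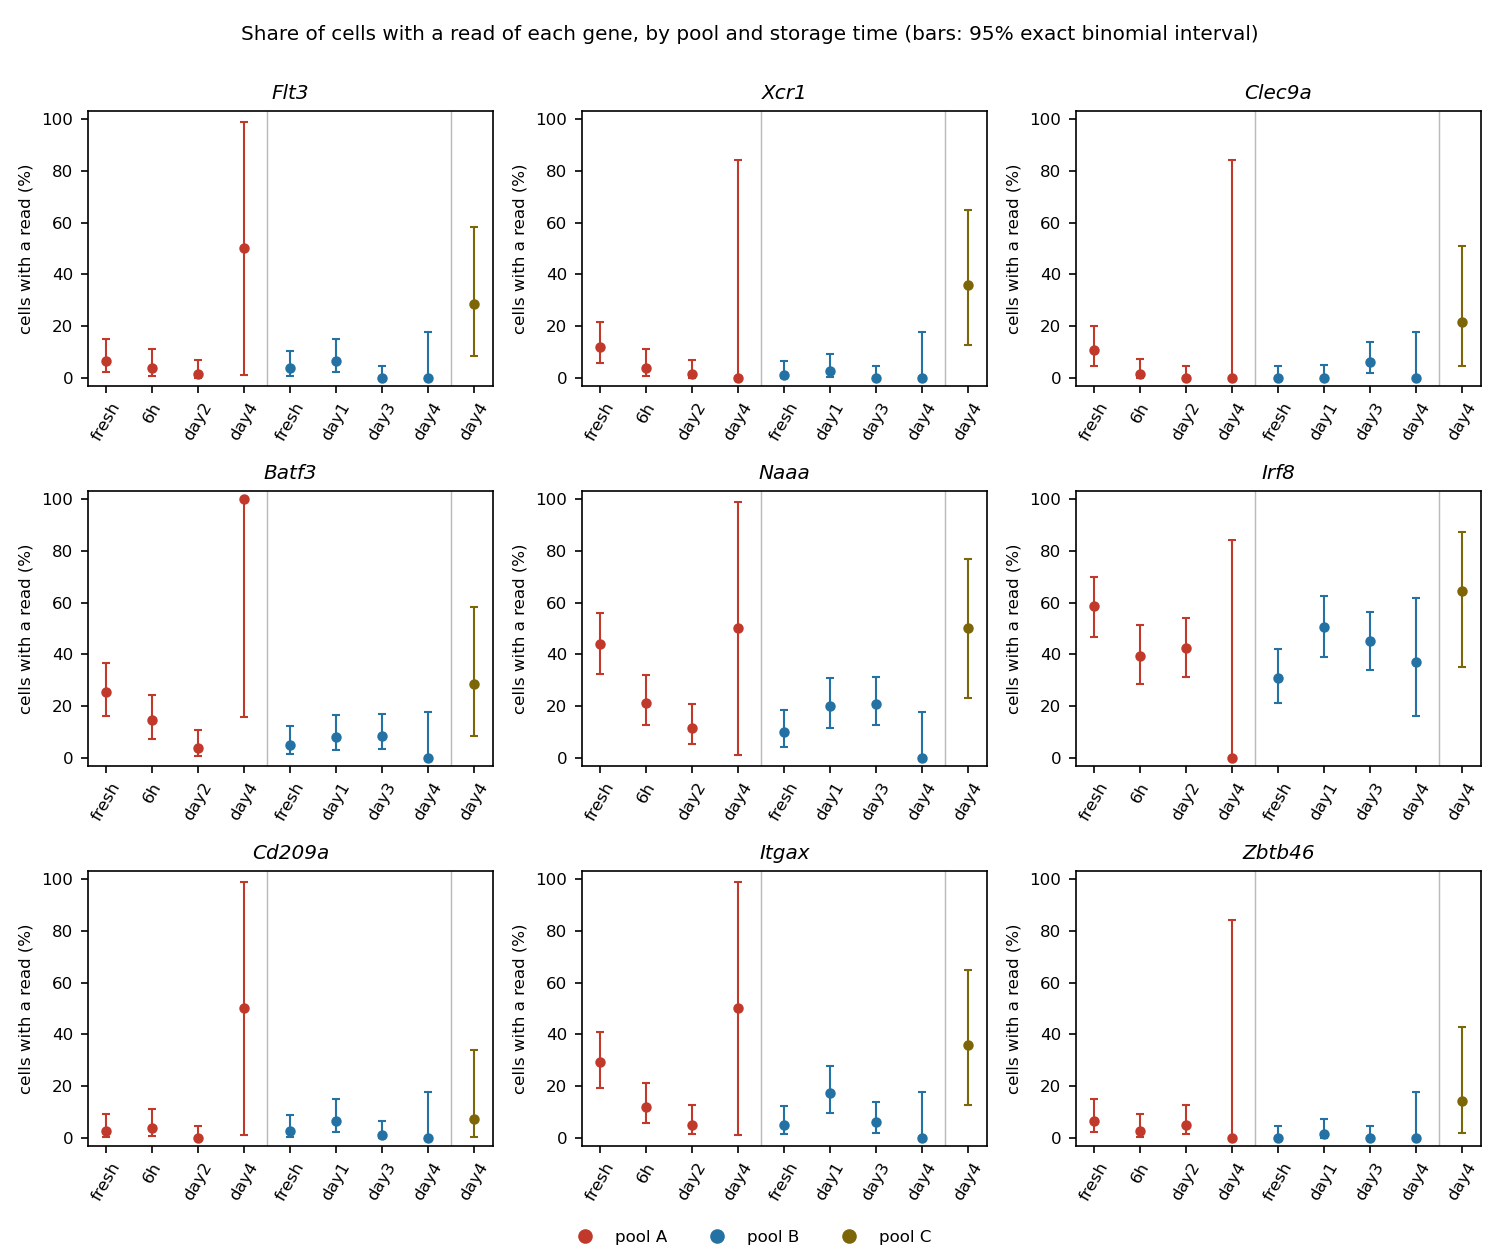
Percentage of cells with a read of each gene in the 9 samples, ordered by pool and storage time, with exact binomial intervals as bars. Naaa, Batf3 and Itgax are highest in fresh cells among the samples of pool A with 75 cells or more, and in pool B they are lower in fresh cells than at day 1 and day 3 but above the 0 of 19 cells of day 4.

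The 3 samples of day 4 were unlike each other. In the 14 cells of pool C, at least 3 of the genes were read in 7 cells (50%, interval 23.04 to 76.96) and at least 6 in 3 cells. Xcr1 was read in 5 of the 14, Naaa in 7, Flt3 in 4, Clec9a in 3 and Zbtb46 in 2, and the sums gave 729 CPM for Xcr1 and 1165 CPM for Naaa. Of the Xcr1 reads 59.6% came from 1 cell, and without it the level was 325.7 CPM. In the 19 cells of pool B Irf8 was read in 7 cells, and each of the other 8 genes in 0, which allows up to 15.8% of cells. In the 2 cells of pool A Batf3 was read in both, and Flt3, Naaa, Cd209a and Itgax in 1 each. Thinning left Xcr1 at 5 of 14 cells (35.7%) in pool C, where the median depth was 1128165.5 counts against 417385 in the day 4 cells of pool B. Median genes read per cell were 2987 in pool C and 1130 in pool B, and C1q cells were 2 of 14 and 10 of 19. The part of these differences in the shares was not tested. Pool C has no fresh cells, so its values have no sample of the same pool to stand beside.

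The genes whose levels went most alike with Flt3, Xcr1 and Clec9a across the 502 cells were partly the same. Likeness was the Pearson correlation of log2(rpm + 1) over 12436 genes read in at least 10 cells, and it is a description only, since cells share libraries and most cells have 0 reads of both genes. Gcsam, a signalling adaptor first known from germinal centre B cells, came first for Xcr1 (r = 0.70), Flt3 (0.67), Clec9a (0.49) and Zbtb46 (0.49). It was read in 13 cells, 12 of which had at least 5 of the 9 genes. Tlr11, a receptor for a protozoan profilin, was among the 5 highest for Flt3 (0.54), Xcr1 (0.56) and Clec9a (0.47), and Ifi205 for Flt3 (0.55), Xcr1 (0.54), Batf3 (0.42) and Naaa (0.48).

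The remaining genes had other neighbours. Cd209a went with the growth factor receptor Fgfr1 (0.67), Tnip3 (0.58), the prostaglandin receptor Ptger3 (0.56), the scavenger receptor Cd163 (0.54) and Dapk1 (0.50), and Fgfr1 was read in 8 of the 15 Cd209a cells and in 11 cells in all. Irf8 went with Unc93b1, which carries nucleic acid sensing Toll-like receptors to endosomes (0.45), and with the antigen presentation genes Cd74 (0.45), H2-DMb2 (0.44), H2-DMb1 (0.44) and H2-DMa (0.42). Itgax went with Havcr2 (0.42), Gm6377 (0.42), Itgad (0.40), Clec12a (0.38) and Etv6 (0.37). Itgad, the gene of a related integrin chain, was read in 10 cells, 9 of which had Itgax.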

How the data were processed

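Per the paper's methods, reads were trimmed to 75 bp, duplicates were removed with picard, STAR aligned the rest to GRCm38 and HTSeq counted them per gene (intersection-strict, strand ignored). Their versions: not given in the sources used here. Cells needed over 2 ng of cDNA and 1000 reads. The authors deposited raw counts, whole numbers without normalization, for 502 cells. Spike-in rows (96, with 0.000185% of counts) and a row for a vector (0.139%) were set aside, as neither is a gene.

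Here counts were divided by each cell's total on genes (rpm) or summed over a sample (CPM). A gene counted as read from 1 read. Thinning drew 100000 counts per cell and left out 8 cells. Python 3.11.15, numpy 2.4.6, pandas 2.3.3 and scipy 1.17.1 were used, with edgeR 4.0.16 and DESeq2 1.42.0 in R 4.3.3 for alternative scalings of sums only. The code for binomial intervals and log2 ratios was checked on simulated data, and that for Poisson intervals and thinning was not.

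The genes named are the 9 genes, the genes of fixed marker lists (cDC1, cDC2, mature and plasmacytoid dendritic cell, MHC class II, monocyte, C1q macrophage, B, T, NK, neutrophil, endothelial, kidney epithelial, cycling, Ptprc) and the 5 genes most like each of the 9. The Cd209 family and single cells were picked out with their values in view. The 9 genes and the lists were chosen with earlier results of these data known. Of the 8 cells with Xcr1 and Clec9a, reads of the endothelial and kidney epithelial lists summed to at most 501 and 104 rpm, those of the B, T and NK lists to at most 428, 340 and 4.14 rpm, and those of the monocyte and C1q macrophage lists to at most 2412 and 30149 rpm. Alternatives covered the read minimum, thinning, scaling, the fresh cells used and the top cell of each gene.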

Additional observations from a re-analysis of the deposited data

Results flagged for a closer look

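For Irf8, the share of cells with a read was lower than in fresh cells in each preserved sample of pool A and higher in each preserved sample of pool B. The difference between pools was not tested, and the timepoints of the pools are not the same. In pool A the share minus that in fresh cells was -19.2 percentage points at 6 h, -16.4 at day 2 and -58.7 at day 4, where only 2 cells were sequenced. In pool B it was 19.8 at day 1 and 14.3 at day 3, and in the 19 cells of day 4 it was 5.98. The fresh cells themselves stood apart, at 58.7% with Irf8 in pool A and 30.9% in pool B. B cells, in which Irf8 was read often, went from 0% of fresh cells to 10.5% at 6 h and 37.2% at day 2 in pool A, and T cells, in which it was read seldom, from 54.3% of fresh cells to 9.33% at day 1 and 7.32% at day 3 in pool B. The part of this makeup in the shares was not tested. Batf3, Naaa and Itgax went the same opposite ways up to day 3, but not at day 4, when they were read in 0 of 19 cells of pool B. In the 2 day 4 cells of pool A their shares stood above those in fresh cells, by 74.7, 6 and 20.7 percentage points.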

How the results depend on the processing

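Of the alternatives for the shares of cells and the counts of genes lower than in fresh cells, 67 of 75 stayed within the counting interval or within 1.5 times. With cells of a marker class left out, an alternative chosen after seeing the data, the share with Xcr1 and Clec9a was 4.03% (6 cells) and the share with at least 3 genes 25.5%, since the denominator is smaller. At day 1, 0 genes were lower by the mean of log2(rpm + 1), by the share of cells with a read, by that share after thinning and with the top cell of each gene left out. Against all fresh cells, 6 genes were lower at day 1 and 9 at day 3, so in pool B the direction rests on which fresh cells are used. Those at 6 h and day 2 were 8 and 7 also against all fresh cells, and 6 and 7 within the cells of no class. Fresh cells came from 2 pools and day 4 cells from 3, and each was read within its own pool. Leaving out 1 of them was not run. No paired analysis was possible because replicate numbers name single cells in accession order and pair no samples. The comparison within a pool is the only matching made. At the median depth of 695188 counts per cell, a gene without a read may lie below detection.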

Other observations

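Cell-cycle genes were read in many of the 8 cells with Xcr1 and Clec9a. Mki67, a marker of cycling cells, was read in 6 of 8, the cyclin gene Ccna2 in 6, Top2a in 4 and Rrm2 in 4, and their summed level had a median of 1599 rpm and ran from 0 to 2869 rpm. In the 12 cells with Cd209a at 10 rpm or more, 0 cells had a read of any of these 4 genes. In the 13 cells with Xcr1 and no Clec9a the median of the sum was 0, but it reached 4833.5 rpm, and Mki67 was read in 4 of the 13. No test was made, and the 8 cells also had more genes read, with a median of 4240 per cell against 2783.5 in the Cd209a cells.

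A pair of cells with Flt3 carried the markers of other dendritic cell states, and both were singled out after their values were seen. A day 4 cell of pool A had Ccr7, which guides dendritic cells to lymph nodes, at 9052 rpm, the actin bundler Fscn1 at 8212 rpm, the chemokine Ccl22 at 2841 rpm and Cacnb3 at 2306 rpm, beside Flt3 at 608 rpm and Batf3 at 10.98 rpm. Reads of Naaa, Irf8, Itgax and Zbtb46 were 0 in it. A day 1 cell of pool B had the plasmacytoid dendritic cell genes Siglech at 4701 rpm, Ly6d at 2924 rpm and Tcf4 at 804 rpm, beside Irf8 at 5046 rpm and Flt3 at 571 rpm, and reads of the other 7 genes were 0 in it.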
